A study of Mus musculus with 6 samples.

Results

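The interferon-induced and antigen presentation genes are a list of 49 mouse genes in 9 classes, from cytosolic RNA sensors to the MHC molecules and the chemokines that draw T cells. They were examined in the livers of mice lacking Creb3l3, a membrane-bound transcription factor of liver and intestine that is induced by fasting. Members were every probe whose deposited symbol is on the list: 84 of the 45281 probes on the array, for 48 of 30869 symbols. Isg15 has no probe under that symbol and was not analysed here. The samples were livers of 3 Creb3l3 KO mice and 3 WT mice, littermates, all male and C57BL/6, on normal chow and fasted for 24 h. The labels do not say how the gene was disrupted or how old the mice were. Each mouse gave 1 RNA sample and 1 Illumina WG-6 bead array, so a replicate is an animal, and the number of arrays limits the precision.

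Cells respond to viral RNA through cytosolic sensors of the RIG-I family, which lead to interferon secretion. Type I interferons, acting through STAT2 and IRF9 among others, and interferon gamma, acting in part through IRF1, then switch on antiviral effectors, GTPases that attack intracellular parasites, and the machinery that cuts peptides, moves them into the endoplasmic reticulum and loads them on MHC class I. MHC class II is made mainly by antigen-presenting cells and is controlled by CIITA. In liver, class I is present on most cells, while class II marks Kupffer cells, dendritic cells and B cells.

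Known control elements lie close to the start sites of many such genes. RefSeq promoter windows of build GRCm38.p6 (250 bases before to 50 after the start) were found for 39 of the listed genes and searched on both strands. The interferon-stimulated response element was in the windows of 17 of 39 member genes (43.6%), against 3.99% of all 27025 genes with a window. The gamma-activated site, TTCNNNGAA, was in 9 of 39 (23.1%), against 9.55% of all genes. The Y box of MHC promoters, CTGATTGG, was also in 9 of 39 (23.1%), against 4.70% of all genes, and these were H2-Aa, H2-Eb1, H2-K1, H2-D1, Tap1, Psmb9, Irf8, Cxcl9 and Cxcl10. The palindromic class I enhancer was in 2, H2-K1 and H2-D1, against 0.0333% of all genes. A match is a description of the letters, not evidence that a factor binds there.

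Stretches upstream of the start sites of 6 members are shown, each ending at the base before the start and written along the gene's strand. They stand for the class II, class I, chemokine, GTPase and antiviral classes whose values follow. Capitals mark the matched motifs: the Y box (CTGATTGG, or CCAATCAG on the other strand), the class I enhancer, which is in the H2-D1 stretch only, and the interferon-stimulated response element, in which GAAA stands on both sides of a pair of free bases, on either strand.
H2-Aa (chr17:34287824-34287953, minus strand): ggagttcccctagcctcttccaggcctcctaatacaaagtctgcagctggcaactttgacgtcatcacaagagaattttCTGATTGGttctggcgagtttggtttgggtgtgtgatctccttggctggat
H2-Eb1 (chr17:34305737-34305866, plus strand): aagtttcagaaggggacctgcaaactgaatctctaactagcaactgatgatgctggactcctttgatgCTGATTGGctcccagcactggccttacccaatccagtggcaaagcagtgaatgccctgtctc
H2-D1 (chr17:35262904-35263093, plus strand): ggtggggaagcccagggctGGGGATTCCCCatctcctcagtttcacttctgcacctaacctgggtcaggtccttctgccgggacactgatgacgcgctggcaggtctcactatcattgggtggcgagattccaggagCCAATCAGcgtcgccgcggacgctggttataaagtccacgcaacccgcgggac
Cxcl10 (chr5:92348890-92349119, minus strand): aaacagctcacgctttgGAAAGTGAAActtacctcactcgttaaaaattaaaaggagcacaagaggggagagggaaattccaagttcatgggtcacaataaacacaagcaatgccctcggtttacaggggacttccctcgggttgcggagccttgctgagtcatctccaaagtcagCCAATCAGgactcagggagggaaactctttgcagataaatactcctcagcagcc
Gbp2 (chr3:142620573-142620662, plus strand): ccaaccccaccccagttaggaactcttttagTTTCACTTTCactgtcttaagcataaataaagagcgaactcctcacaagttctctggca
Ifit3 (chr19:34583354-34583528, plus strand): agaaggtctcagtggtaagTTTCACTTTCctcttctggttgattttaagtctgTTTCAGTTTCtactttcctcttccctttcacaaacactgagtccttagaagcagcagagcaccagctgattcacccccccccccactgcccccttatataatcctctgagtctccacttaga
In the H2-Aa and H2-Eb1 stretches the Y box begins at -51 and -62 from the start, and in H2-D1 and Cxcl10 it lies on the other strand at -53 and -54. Cxcl10 also has a response element at -213, Gbp2 has 1 at -59, and Ifit3 has 2, at -156 and -122.

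The probe for Creb3l3 followed the labels. Its deposited signals, mean bead intensities in arbitrary units, were 148, 283 and 87.9 on the KO arrays, against 1201, 949 and 929 on the WT arrays. Its log2 change, KO minus WT, was -2.32 ± 0.15 (SE) in 5 arrays, with an adjusted p of 0.00271, and -2.71 ± 0.39 with all 6, with an adjusted p of 0.574. KO replicate 3 stood apart from the other arrays before any gene was compared. It had 4302 probes with a detection p under 0.05, against 11846 and 15867 on the other KO arrays and 15504 to 16224 on the WT arrays. Its mean signal was 87.3, against 149 and 246 on the other KO arrays and 219 to 252 on the WT arrays, and it correlated with the other arrays at 0.738 to 0.752 where they correlated with each other at 0.964 to 0.991. Of the 84 member probes it detected 17, against 60 and 68 on the other KO arrays and 65 to 67 on the WT arrays. KO replicate 1 was also dimmer than the rest. The values that follow therefore come from the 5 arrays without KO replicate 3, normalized on their own, and values from all 6 are given for each class and for the members described array by array. Changes are log2 differences, KO minus WT, with the SE of the limma fit.

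None of the member genes changed past the threshold, an adjusted p under 0.05 over all tested probes. Of 48 genes, 41 had a brightest probe detected on at least 3 arrays and were tested in each fit. In 5 arrays 0 of the 41 passed, where 0.336% of all 10414 tested genes did, 0.0672% higher and 0.269% lower. With all 6 arrays 0 of 41 passed, where 0% of 10535 genes did. Counting every probe in place of the brightest, 0 of 65 tested member probes passed in 5 arrays, where 0.342% of 14345 did. At an unadjusted p under 0.05 limma gave 5 members higher (Ccl5, Cxcl10, Cd74, Gbp2 and H2-Ab1) and 0 lower in 5 arrays, against 4.84% and 7.1% of all genes. Over all 6 arrays it gave 0 members, against 3.73% of all genes. The smallest adjusted p among members was 0.116, for Ccl5. Both KO arrays lay above every WT array for 11 of 41 members, where 13.8% of genes did so, and below every WT array for 2, Irgm1 and Tap1, where 15.5% did. The median member change was 0.12, with 27 above 0 and 14 below, against a median of -0.02 over all genes. Including KO replicate 3, the median was -0.20 for members, 11 above 0 and 30 below, and -0.27 for all genes.

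**Figure D1:**
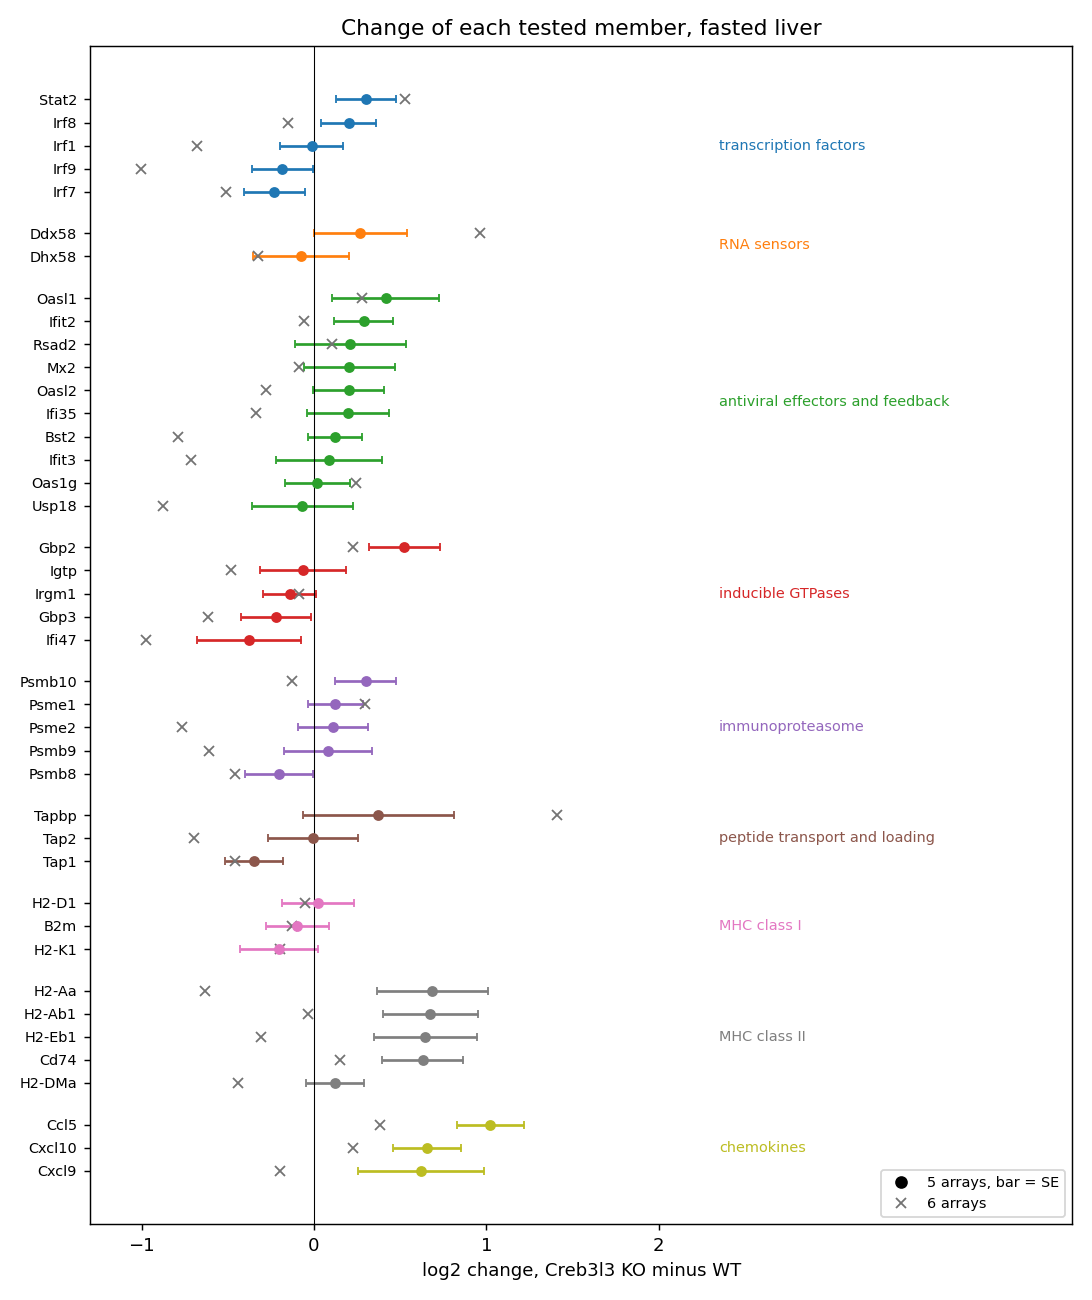
Log2 change, Creb3l3 KO minus WT, of the 41 tested members grouped by class; filled points are the 5-array fit with bars of 1 SE (KO n = 2, WT n = 3), crosses the fit of all 6 arrays. The chemokines and most class II genes lie furthest to the right in 5 arrays, between 0.62 and 1.02 apart from H2-DMa at 0.12, and several crosses, such as H2-Aa at -0.63, fall on the other side of 0.

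Of the RNA sensors, Ifih1 was close to the detection limit, while the brightest probes of Ddx58 and Dhx58 were detected on all 5 arrays. The median of the 2 tested was 0.10 in 5 arrays and 0.32 with all 6. Ifih1, which encodes the long double-stranded RNA sensor MDA5, had deposited signals of 93.3, 91.7 and 86.3 on the KO arrays, against 95.8, 96.1 and 97.1 on the WT arrays. It was detected on 1 WT array only and was not tested. Ddx58, which encodes RIG-I, had normalized log2 signals of 6.35 and 5.42 in KO livers, against 5.44, 5.73 and 5.67 in WT livers. The KO arrays lay at both ends of the range, and the change was 0.27 ± 0.27 (adjusted p = 0.704) and 0.96 ± 0.64 with all 6 arrays. On KO replicate 3 the deposited Ddx58 signal was 91.1, the lowest of the 6 arrays, and the normalized value was 7.84, the highest. Dhx58, which encodes the regulator LGP2, had 5.73 and 5.0 in KO livers, against 5.03, 5.67 and 5.64 in WT livers, a change of -0.08 ± 0.28 (adjusted p = 0.929) and -0.32 ± 0.35 with all 6 arrays. A dimmer Dhx58 probe gave -0.97 ± 0.27 (adjusted p = 0.258), with 4.36 and 5.22 in KO livers, against 5.51, 5.98 and 5.80 in WT livers. That probe was not detected on KO replicate 1.

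The transcription factors of interferon signalling had a median change of -0.01, with 2 of 5 above 0. Stat2, a part of the complex that binds the response element, had 6.33 and 6.23 in KO livers, against 6.13, 6.03 and 5.77 in WT livers. Both KO values were above the WT values, and the change was 0.30 ± 0.17 (adjusted p = 0.508) and 0.53 ± 0.28 with all 6 arrays. Stat2 was not detected on KO replicate 3, where its normalized value was 6.82, the highest of the 6 arrays. Irf7, the interferon-induced factor that amplifies type I interferon, had 5.76 and 5.40 in KO livers, against 5.72, 5.79 and 5.93 in WT livers, a change of -0.23 ± 0.18 (adjusted p = 0.617) and -0.51 ± 0.32 with all 6 arrays. Irf1, Irf8 and Irf9 had changes of -0.01, 0.20 and -0.18 in 5 arrays, and -0.68, -0.15 and -1.0 with all 6. The median of this class was -0.51 with all 6 arrays.

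Among antiviral effectors and feedback genes, 10 of the 15 on the array were tested and 9 lay above 0, with a median of 0.20. Ifit1, Isg20, Mx1, Oas1a and Oas2 were not tested. Ifit1, a classic interferon-induced RNA-binding protein, was not detected on any array, with deposited signals of 90.8, 88.5 and 80.2 in KO livers, against 94.9, 83.3 and 91.8 in WT livers. Its relative Ifit2 had normalized log2 signals of 5.47 and 5.26 in KO livers, against 5.02, 4.97 and 5.25 in WT livers. The KO values were just above the highest WT value, and the change was 0.29 ± 0.17 (adjusted p = 0.518) and -0.06 ± 0.33 with all 6 arrays. A dimmer Ifit2 probe gave -0.45 in 5 arrays and was not detected on KO replicate 1. Oasl1, of the oligoadenylate synthetase family, had 6.71 and 5.52 in KO livers, against 5.72, 5.69 and 5.68 in WT livers. Its WT values were close together, the KO values lay on both sides of them, and the change was 0.42 ± 0.31 (adjusted p = 0.601) and 0.28 ± 0.33 with all 6 arrays. Ifit3, Ifi35, Mx2, Oas1g, Oasl2, Rsad2, Usp18 and Bst2 ranged from -0.07 for Usp18, the protease that removes ISG15 and damps interferon signalling, to 0.21 for Rsad2, which encodes viperin. Oas1g has near-identical relatives, among them Oas1a, that the probes may not separate. The class median was -0.18 with all 6 arrays and -0.15 without KO replicate 1, so the direction of this class rested on that array.

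The interferon-inducible GTPases had a median of -0.14, with 1 of 5 above 0, and -0.48 with all 6 arrays. The exception was Gbp2, a guanylate-binding protein that acts on the vacuoles of intracellular pathogens. It had 6.71 and 6.15 in KO livers, against 6.04, 5.76 and 5.92 in WT livers. Both KO values were above the WT values, with a change of 0.52 ± 0.21 (unadjusted p = 0.0353, adjusted p = 0.393) and 0.23 ± 0.32 with all 6 arrays. Ifi47, an immunity-related GTPase, had 6.82 and 6.04 in KO livers, against 7.0, 6.32 and 7.10 in WT livers, a change of -0.38 ± 0.30 (adjusted p = 0.630) and -0.97 ± 0.59 with all 6 arrays. The groups overlapped. Irgm1, which regulates the other immunity-related GTPases, had 10.81 and 10.77 in KO livers, against 11.01, 10.84 and 10.95 in WT livers. Its KO values were below all WT values by a small margin, a change of -0.14 ± 0.15 (adjusted p = 0.733) and -0.09 ± 0.19 with all 6 arrays. Igtp and Gbp3 had -0.06 and -0.22.

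The immunoproteasome subunits and activator, which cut proteins into peptides suited to class I, had changes from -0.20 to 0.30 and a median of 0.11, with 4 of 5 above 0. The class median was 0.36 above the WT mean on KO replicate 1 and at -0.14 from it on KO replicate 2, and with all 6 arrays the median change was -0.46, with 4 of 5 below 0. Psmb8, a catalytic subunit, had 7.44 and 6.88 in KO livers, against 7.29, 7.43 and 7.36 in WT livers. The KO values enclosed the WT values, and the change was -0.20 ± 0.20 (adjusted p = 0.70) and -0.46 ± 0.31 with all 6 arrays. Psmb10, another catalytic subunit, had 7.99 and 7.61 in KO livers, against 7.41, 7.50 and 7.57 in WT livers, a change of 0.30 ± 0.18 (adjusted p = 0.517), with KO above WT, and -0.13 ± 0.40 with all 6 arrays. Psmb9, Psme1 and Psme2 had 0.08, 0.12 and 0.11.

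The genes of peptide transport and loading had a median of -0.01, and -0.46 with all 6 arrays. Tap1, a subunit of the transporter that carries peptides into the endoplasmic reticulum, had 4.67 and 4.72 in KO livers, against 4.91, 4.98 and 5.24 in WT livers. The KO values were below the WT values, but the probe was not detected on KO replicate 1, and the change was -0.35 ± 0.17 (adjusted p = 0.458) and -0.46 ± 0.23 with all 6 arrays. Its partner Tap2 had -0.01 ± 0.26. Tapbp, or tapasin, which bridges the transporter and class I, had 7.44 and 5.73 in KO livers, against 5.88, 6.45 and 6.30 in WT livers. The KO arrays were the highest and the lowest of the 5, and the change was 0.37 ± 0.44 (adjusted p = 0.749) and 1.41 ± 0.95 with all 6 arrays. On KO replicate 3 the deposited Tapbp signal was 97.7, the lowest of the 6 arrays, and the normalized value was 9.53, the highest. A dimmer Tapbp probe gave 0.50 ± 0.27 in 5 arrays and -0.03 ± 0.49 with all 6.

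The MHC class I genes had changes from -0.20 to 0.02, with a median of -0.10 in 5 arrays and -0.13 with all 6. B2m, the light chain shared by class I molecules, had 13.66 and 13.23 in KO livers, against 13.60, 13.48 and 13.55 in WT livers, a change of -0.10 ± 0.18 (adjusted p = 0.849) and -0.13 ± 0.21 with all 6 arrays. Of the heavy chains, H2-K1 had 10.40 and 9.69 in KO livers, against 10.27, 10.12 and 10.34 in WT livers. H2-D1 had 11.70 and 11.07 in KO livers, against 11.30, 11.39 and 11.39 in WT livers. The KO values enclosed the WT values for all 3 genes, with changes of -0.20 ± 0.23 for H2-K1 (adjusted p = 0.734) and 0.02 ± 0.21 for H2-D1 (adjusted p = 0.975). All 6 arrays gave -0.20 ± 0.25 for H2-K1 and -0.05 ± 0.24 for H2-D1. Class I heavy chain genes are near-identical to each other, and probes may not separate them.

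The MHC class II genes stood higher in KO livers in 5 arrays without passing the threshold. All 5 tested genes lay above 0, with a median of 0.65, while Ciita, which encodes their master regulator, was not detected on any array. Cd74, the invariant chain that escorts class II molecules, had deposited signals of 449, 974 and 91.7 on the KO arrays, against 888, 523 and 728 on the WT arrays. On that scale 1 KO array was the highest of all 6 and the others were the lowest. After normalization Cd74 had 10.02 and 9.48 in KO livers, against 9.27, 8.78 and 9.32 in WT livers. It averaged 9.75 ± 0.38 in KO livers (SD, n = 2) and 9.12 ± 0.30 in WT livers (SD, n = 3), a change of 0.63 ± 0.24 (unadjusted p = 0.0285, adjusted p = 0.375). The H2-Aa chain had 8.86 and 8.11 in KO livers, against 8.09, 7.22 and 8.09 in WT livers, a change of 0.69 ± 0.32 (adjusted p = 0.445). Its partner H2-Ab1 had 9.59 and 8.91 in KO livers, against 8.73, 8.14 and 8.85 in WT livers, a change of 0.68 ± 0.28 (unadjusted p = 0.0403, adjusted p = 0.395). In each of these the margin between the lower KO value and the highest WT value was small. H2-Eb1, another beta chain, had 0.65 ± 0.30 (adjusted p = 0.442), and H2-DMa, which helps load class II, had 0.12 ± 0.17.

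Both genotypes varied within class II. Measured from the WT mean, the class median was 1.01 on KO replicate 1 and 0.32 on KO replicate 2, against 0.16, -0.43 and 0.21 on the WT arrays. KO replicate 1 was the highest and WT replicate 2 the lowest of the 5 arrays for 5 of 5 class II genes, where 26% and 16.8% of all genes had those arrays there. Without KO replicate 1 the class median was 0.32, without KO replicate 2 it was 1.02 and without WT replicate 2 it was 0.43. With all 6 arrays it was -0.31, KO replicate 3 lying 1.55 below the WT mean (-1.55), and 4 of 5 genes were below 0: H2-Aa had -0.63 ± 1.11, H2-Ab1 -0.04 ± 0.64 and Cd74 0.15 ± 0.46.

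**Figure D2:**
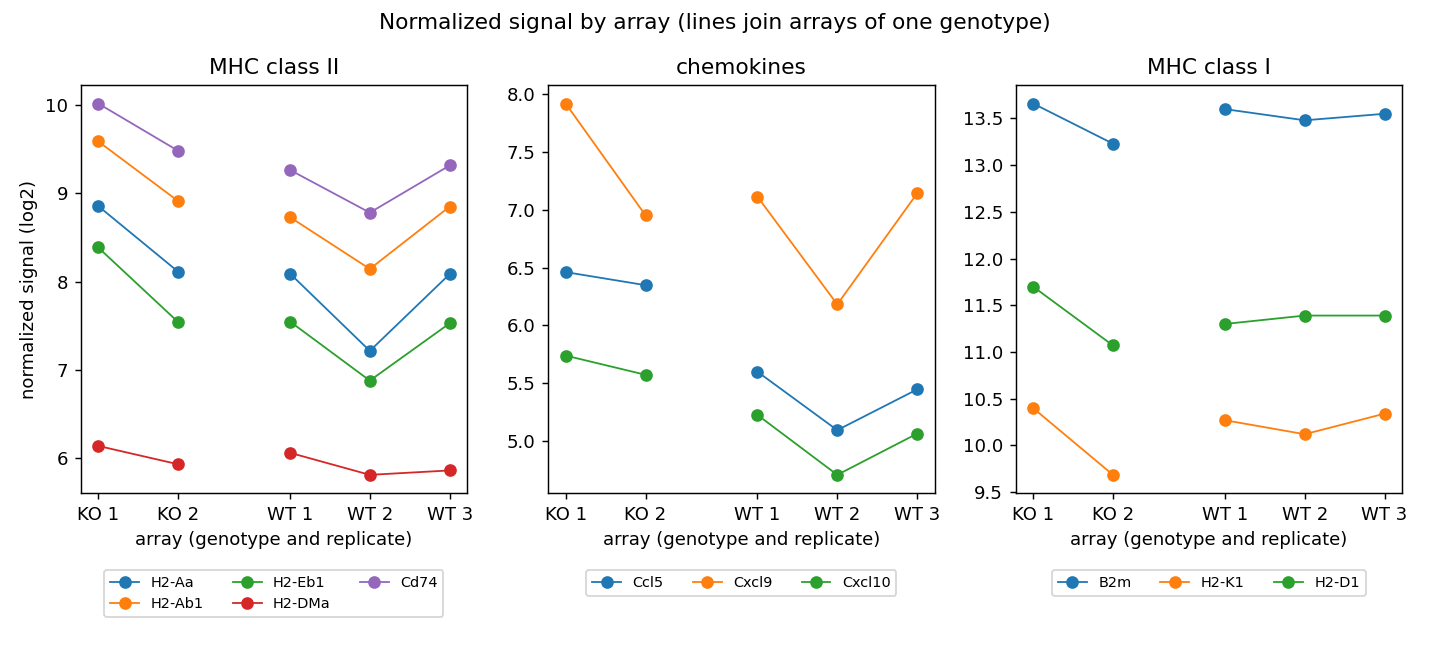
Normalized log2 signal of the tested class II genes, chemokines and class I genes on each of the 5 arrays (2 KO, 3 WT); each point is 1 array, and lines join arrays of a genotype without implying an order. Class II genes and chemokines are highest on KO replicate 1 and lowest on WT replicate 2, while each class I gene has its highest and its lowest value in KO livers.

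The 3 chemokines lay above 0, with a median of 0.66, and 0.23 with all 6 arrays, where Cxcl9 was at -0.20. Ccl5, which attracts T cells, NK cells and monocytes, had deposited signals of 119, 177 and 85.0 on the KO arrays, against 133, 107 and 117 on the WT arrays. It was not detected on KO replicate 3. KO replicate 2 was the highest of the 6 and KO replicate 1 lay within the WT range before normalization. After it, Ccl5 had 6.46 and 6.35 in KO livers, against 5.60, 5.10 and 5.45 in WT livers, and the groups did not overlap. It averaged 6.41 ± 0.08 in KO livers (SD, n = 2) and 5.38 ± 0.26 in WT livers (SD, n = 3), the largest change of any member at 1.02 ± 0.19 (unadjusted p = 0.000729, adjusted p = 0.116). With all 6 arrays it was 0.38 ± 0.51 (adjusted p = 0.704). Cxcl10, an interferon-induced ligand of CXCR3, had 5.74 and 5.57 in KO livers, against 5.23, 4.71 and 5.07 in WT livers. Its groups did not overlap either, and the change was 0.66 ± 0.20 (unadjusted p = 0.0103, adjusted p = 0.299) and 0.23 ± 0.37 with all 6 arrays. Before normalization its deposited signals were 108, 131 and 84.2 on the KO arrays, against 118, 99.1 and 106 on the WT arrays. KO replicate 1 lay within the WT range there too. A dimmer Cxcl10 probe was not detected on any array. Cxcl9, another CXCR3 ligand, had 0.62 ± 0.37, with overlapping groups. WT replicate 2 was the lowest and KO replicate 1 the highest of the 5 arrays for all 3 chemokines.

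The 2 KO arrays differed from each other in the same way for nearly all members. KO replicate 1 was above KO replicate 2 for 37 of 41 members, where 41.2% of all genes were so. The median member lay 0.35 above the WT mean on KO replicate 1 and at -0.16 from it on KO replicate 2, against -0.07 and 0.03 for all genes. KO replicate 1 was the highest of the 5 arrays for 29 of 41 members, where 26% of genes were so. The class II genes and chemokines, apart from H2-DMa at 0.02, were 0.14 to 0.97 above the WT mean on KO replicate 2 as well. KO replicate 1 detected fewer probes than KO replicate 2, 11846 against 15867, and the part of this in the result was not tested.

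**Figure D3:**
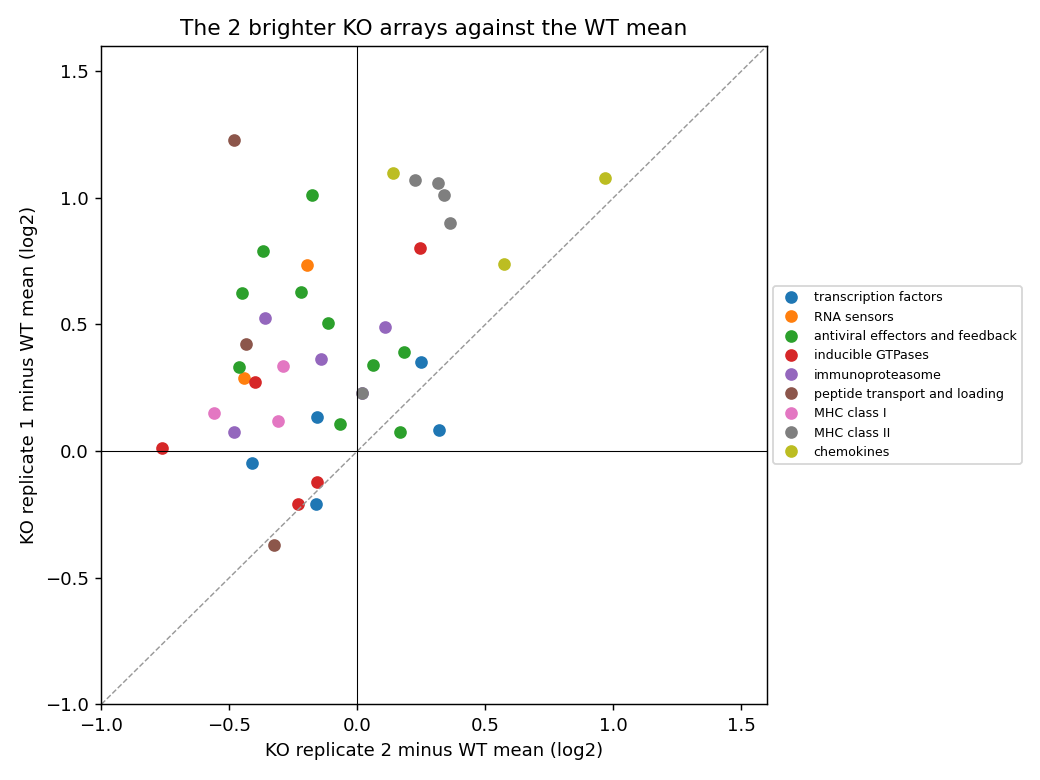
Each of the 41 tested members by its log2 distance from the WT mean on KO replicate 2 (horizontal axis) and KO replicate 1 (vertical axis), coloured by class; the dashed line marks equal distances. Points lie above the line for 37 of 41 members, and the chemokines and the class II genes other than H2-DMa, which lies at 0.02 and 0.23, are in the upper right.

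Markers of the cells that carry class II or make these chemokines were set beside them. In whole liver, fewer cells of a type and less RNA per cell cannot be told apart. Of 12 Kupffer cell and macrophage markers 11 were tested, 8 above 0, with 0 past the threshold and a median of 0.09. Their summed normalized signal on the linear scale was 2662 and 2953 in KO livers, against 2376, 2434 and 2789 in WT livers, and Cd5l was undetected. Both KO arrays were above all WT arrays for 4 of them, where 13.8% of all genes were so. These were Adgre1 at 0.69, Cd68 at 0.47, Marco at 0.95 and C1qb at 0.33, with adjusted p from 0.219 to 0.445. Dimmer Adgre1 probes gave 0.20 and 0.05, with overlapping groups. Both KO arrays were below all WT arrays for Cd163 at -0.29, where 15.5% of all genes were so. C1qa and Lyz2 were also below 0, at -0.16 and -0.05. The 7 dendritic cell markers summed to 183 and 156 in KO livers, against 145 to 153 in WT livers, and Itgax, Flt3, Xcr1, Clec9a and Zbtb46 were not detected on any of the 5 arrays. The 8 T cell markers summed to 172 and 188 in KO livers, against 166 to 176 in WT livers, and Cd3e, Cd2, Cd4 and Cd8a were not detected. The 5 B cell markers on the array summed to 150 and 109 in KO livers, against 100 to 117 in WT livers, with 0 tested. The 6 NK cell markers on the array summed to 249 and 218 in KO livers, against 195 to 224 in WT livers, with Ncr1, Gzmb and Klrb1c undetected. Undetected probes keep a background level after normalization, which adds to each of these sums. All 3 WT arrays detected 1 of 7 dendritic cell, 0 of 8 T cell, 0 of 5 B cell and 2 of 6 NK cell markers. The dendritic cell, T cell and B cell sums are therefore mostly background. Klrd1, an NK cell receptor chain, was detected on 3 of 3 KO arrays and 0 of 3 WT arrays. On KO replicate 3 its deposited signal was 90.5, below the WT signals of 96.0, 95.6 and 95.9. Its detection p there was 0.0246, against 0.136, 0.0673 and 0.0534 on the WT arrays. The detection count therefore does not follow the deposited signal. Klrd1 was not tested in 5 arrays, with normalized signals of 5.38 and 5.26 in KO livers, against 4.44, 4.53 and 4.57 in WT livers. With all 6 arrays its change was 1.501 ± 0.6595 (adjusted p = 0.653), not past the threshold. Nkg7, of cytotoxic granules, had 5.49 and 4.72 in KO livers, against 4.55, 4.58 and 4.68 in WT livers, a change of 0.50 ± 0.23 (adjusted p = 0.442). Prf1, the other NK cell marker tested in 5 arrays, had 6.69 and 6.57 in KO livers, against 6.72, 6.48 and 6.83 in WT livers. The groups overlapped for Prf1, with a change of -0.04 ± 0.17 (adjusted p = 0.935). Other cell types varied on the same arrays. The neutrophil marker S100a9 had 5.27 and 6.16 in KO livers, against 5.13, 4.92 and 4.89 in WT livers, a change of 0.74 ± 0.26 (adjusted p = 0.355). S100a8, the other neutrophil marker tested, had 5.475 and 7.245 in KO livers, against 5.807, 5.953 and 5.726 in WT livers. The KO values enclosed the WT values for S100a8, with a change of 0.53 ± 0.43 (adjusted p = 0.638). The 6 neutrophil markers on the array summed to 167 and 319 in KO livers, against 162 to 172 in WT livers. The 4 red cell markers summed to 9257 on KO replicate 1 and 23320 on KO replicate 2, against 21489 to 26238 in WT livers. The 5 cholangiocyte markers summed to 620 and 687 in KO livers, against 632, 425 and 643 in WT livers, the lowest being WT replicate 2. The 7 liver endothelial cell markers summed to 1761 and 2162 in KO livers, against 2148 to 2338 in WT livers, with Kdr undetected. Of 6 tested, 4 lay above 0, with a median of 0.20 and 0 past the threshold. Both KO arrays were above all WT arrays for 3 of these and below for 1, where 13.8% and 15.5% of all genes were so. The part of any of these cells in the class II and chemokine values was not tested.

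The rest of the pathway also had no calls. Of 69 listed receptors, kinases, upstream sensors and further interferon-induced and MHC genes, 59 were on the array and 41 were tested. In both fits 0 passed, and at an unadjusted p under 0.05 limma gave 2 higher and 3 lower in 5 arrays, where 4.84% and 7.1% of all genes were so, which is close to those shares. The 2 higher were H2-DMb1, a chain of the class II loading factor, at 0.71 ± 0.26, and Ctss, the protease that trims the invariant chain, at 0.39 ± 0.16 (adjusted p = 0.366 and 0.398). The lower ones included Ifnar2, a chain of the type I interferon receptor, at -0.63 ± 0.21, and Socs3, a feedback inhibitor of cytokine signalling, at -0.62 ± 0.26 (adjusted p = 0.345 and 0.399). These 4 were named after their values were seen. The Ifnar2 probe was not detected on KO replicate 1. A dimmer Ifnar2 probe, also undetected there, gave -0.49. Another, detected on all 5 arrays, gave 0.14 with overlapping groups. Ifngr1, a chain of the interferon gamma receptor, had 0.27 ± 0.20 (adjusted p = 0.608). Ifnar1, a chain of the type I receptor, and H2-Ea, a class II chain that C57BL/6 mice are known not to express, were not detected on any array, and Nlrc5 had no probe under that symbol.

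Several members had more than 1 probe. Of 20 with more than 1 tested probe, 10 had probes of opposite sign and 0 had probes more than 1 apart on the log2 scale. For Psmb8 a dimmer probe gave 0.39 against -0.20, for H2-K1 0.06 against -0.20, for H2-D1 -0.09 against 0.02, and for Oasl1 -0.23 against 0.42. For Irf1 the other probes gave 0.04 to 0.28 against -0.01, for Irf9 0.14 against -0.18, and for Gbp3 0.01 against -0.22. For Ifit3 a dimmer probe gave -0.31 against 0.09, and for Oas1g -0.30 against 0.02. The dimmer Ifit3 and Oasl1 probes were not detected on KO replicate 1. The dimmer Oas1g probe was detected on neither KO replicate 1 nor KO replicate 2. The class II genes had 1 sign throughout: the 3 Cd74 probes gave 0.63, 0.77 and 0.32, and the 3 H2-Ab1 probes 0.68, 0.38 and 0.64.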

How the data were processed

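Total RNA from 6 livers was hybridised to Illumina WG-6 arrays. Per the file headers, the authors deposited an average signal for each probe and array, a linear intensity that its values show to be unnormalized and without background subtraction, and a detection p-value. The submitters' processing notes name BeadStudio 3. A series-wide table by the authors holds linear intensity values that match quantile-normalized signals, with column medians of 91.7, 91.7 and 91.6 for KO and 91.7 for each WT column. Its WT replicates 2 and 3 are swapped compared with the array tables, and its normalization is not stated, so it served as an alternative only.

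Here limma 3.58.1 (R 4.3.3) was used: background correction by normexp, with negative controls inferred from detection p and an offset of 16, then quantile normalization and log2. Probes needed a detection p under 0.05 on 3 or more arrays, which left 14345 for 5 arrays and 14494 for 6. The linear model held genotype alone, moderated tests had both sides, and p-values were adjusted by Benjamini-Hochberg over those probes. A gene was represented by its brightest probe. Values are given for the 2 members of each class with the smallest p and for a set list of others, of which 1 is not reported here. The replicate numbers showed no pairing of the samples (correlations of deviations -0.0452, -0.0482 and 0.0368 with all 6 arrays). This cannot exclude pairing, because deviations from the mean of so few arrays depend on each other and KO replicate 3 enters them. Steps were tested on simulated data. The members and lists were chosen with earlier results of these data known. Alternatives covered normalization, background, filter, variance model, array weights, pairing, probe choice and leaving out each mouse. Promoter windows came from RefSeq, GRCm38.p6, and figures from matplotlib 3.10.9.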

Additional observations from a re-analysis of the deposited data

Results flagged for a closer look

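Mx1, an interferon-induced GTPase gene, was left out of both fits because its probe was not detected on at least 3 arrays. It entered only the alternative with no filter on dim probes, where 0 of 48 members passed. Its deposited signal was 101, 104.1 and 82.7 on the KO arrays, against 93.2, 95.5 and 88.9 on the WT arrays. It was detected on KO replicates 1 and 2, with detection p-values of 0.0427 and 0.00427, and on 0 of 3 WT arrays, which is what flagged it; these signals lie close to background. Oas2 was also detected on 2 KO arrays, replicates 2 and 3, at 106 and 89.9, and on 0 of 3 WT arrays.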

How the results depend on the processing

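The count of members past the threshold stayed at 0 in 5 arrays under every alternative run except leaving out KO replicate 2, where it was 9 higher (Ddx58, Oasl1, Rsad2, Gbp2, Tapbp, H2-Ab1, H2-Eb1, Cd74 and Ccl5), a range of 0 to 9 over the left-out mice; that fit rests on KO replicate 1 alone, assumed to vary like the WT arrays, and calls 787 probes higher and 1447 lower over all 13351 tested. With all 6 arrays it stayed at 0 except with array weights, which gave 11 higher, the same 9 with Cxcl9 and Cxcl10, among 1030 probes higher and 1802 lower. The cause was not tested. With the replicate block 0 members passed in either fit, and over all probes it gave 13 higher and 34 lower in 5 arrays, against 9 and 40 without it, and 0 with all 6. Over all probes in 5 arrays, cyclic loess gave 25 higher and 58 lower, trended and robust variance 30 and 92, an offset of 50 28 and 80, no background correction 20 and 65, the authors' own values 18 and 65, median scaling 0 and 4, and no filter 0 and 1. Median scaling moved the median of all tested probes to -0.43, and the member changes given for it are relative to that. Its p-values, and so its counts of probes and members past the threshold, were tested against 0 and not against that median.

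Of the values for named members, 309 kept their direction and side of the threshold, 7 newly passed it, and 24 turned sign. B2m was 0.21 with cyclic loess. Tap1 was 0.0025 and H2-D1 -0.23 with median scaling. Dhx58 was 0.019 with the replicate block. With the mean of all kept probes Ifit2 was -0.083, Psmb8 0.092 and H2-D1 -0.032. With all 6 arrays Ifit2 was -0.058, Psmb10 -0.13, H2-D1 -0.055, H2-Aa -0.63 and H2-Ab1 -0.036. The cause of these turns was not tested. Leaving out each mouse in turn gave -0.21 to 0.71 for Ddx58, -0.19 to 0.99 for Oasl1, -0.50 to 1.22 for Tapbp, -0.29 to 0.34 for H2-D1, -0.48 to 0.28 for Dhx58, -0.79 to 0.013 for Ifi47, -0.49 to 0.077 for Psmb8, -0.29 to 0.12 for B2m and -0.56 to 0.15 for H2-K1. Ccl5, Cxcl10, Cd74, Gbp2, Stat2 and Irf7 kept their sign in all 17 alternatives. The slide as a block was not run, since the array tables used name no slide. KO replicate 3, which detected 17 of 84 member probes, limits what the 6 arrays can show.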
